A study of Mus musculus with 4 samples.

Results

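The protein tyrosine and dual-specificity phosphatase genes were compared between fetal liver cells of mice with and without the phosphatase PRL2, all of which had been given the leukemia fusion MLL-AF9. They were taken as the protein-coding genes of the deposited count table whose symbols begin with Ptpn, Ptpr or Dusp. Of 39 genes with such a symbol, 1 is not protein-coding and 1 is not reported here, which left 37 of the 13614 genes in the table. These are 9 receptor-type genes (Ptpr), 13 non-receptor genes (Ptpn), 7 typical MAP kinase phosphatases and 8 atypical dual-specificity phosphatases (both Dusp). The question was whether other phosphatase genes differed in expression when PRL2 was lost. Dusp4, Dusp8 and Dusp16, further typical MAP kinase phosphatases, and Ptprcap, which encodes a partner of CD45, were not analysed here.

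Both genotypes were fetal liver cells of embryonic day 14.5 to 16.5, a source rich in blood stem and progenitor cells, transduced with the retroviral vector MSCV-MLL-AF9-IRES-GFP and sorted for its green fluorescent marker. The wild type libraries came from Prl2+/+ cells and the Prl2 knockout libraries from Prl2-/- cells, with 2 libraries each. The wild type cells therefore carry the fusion as well. The labels call both leukemia-initiating cells. They do not give the deleted part of the gene. Nor do they say whether the libraries of a genotype came from separate embryos or cultures. Every p-value below is therefore set against the spread between these libraries, which may be technical.

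Protein tyrosine phosphatases remove phosphate from tyrosine, and dual-specificity phosphatases also remove it from serine and threonine. Both use a cysteine in a short loop that begins with histidine and cysteine and ends with arginine, and PRL2 shares this loop. Receptor-type enzymes cross the membrane, non-receptor enzymes act inside the cell, and typical MAP kinase phosphatases switch off ERK, p38 and JNK. In blood cells CD45 (Ptprc) and SHP1 (Ptpn6) set the strength of signals from Src family kinases and cytokine receptors, and SHP2 (Ptpn11) passes growth factor signals on to RAS and ERK.

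The loop is the feature that the gene family has in common with the deleted gene, so its coding sequence is shown for Ptp4a2, the gene of PRL2, and for the members on which the results turn. The sequences are mm10 coding sequences of the GENCODE M21 annotation, 24 bases each, 5′ to 3′ on the coding strand, with the codon of the catalytic cysteine in capitals.
Ptp4a2: catTGTgttgcaggattgggaagg
Ptpn6: catTGCagcgctggcatcggccgc
Ptpn11: cacTGCagcgctgggattggccgg
Ptpn18: cacTGCagtgctggctgcggacga
Ptprc: cacTGCagtgctggtgttgggcgt
Ptpra: cacTGCagtgcaggtgtagggcgc
Dusp1: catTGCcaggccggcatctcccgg
Dusp2: cacTGCcaagctggcatctctcgc
Dusp5: cacTGCgaagctggggtttcccgg
Dusp6: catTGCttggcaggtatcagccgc
A search of the coding sequences for histidine and cysteine followed by any 5 residues and arginine found the pattern in 36 of the 37 members. Dusp28 had no match. In 6 members there were 2 matches, and in Ptpra, Ptpre, Ptprm, Ptprs and Ptprt these lie in the paired phosphatase domains that such receptors carry. The sixth is Ptpn9, whose first match, at codon 67, lies outside the catalytic domain. The cysteine codon is codon 101 of Ptp4a2, 455 of Ptpn6 and 258 of Dusp1, counted from the start codon.

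Upstream bases are shown for Dusp1 and Dusp5, both of which are known to be induced by signalling. The sequences are RefSeq promoters of GRCm38.p6, the mm10 assembly, up to the first annotated exon base in the window, 5′ to 3′ on the strand of the gene, with the motif in capitals. Dusp1 (chr17:26508520-26508722, minus strand) has a cyclic AMP response element, searched as TGACGTCA. Dusp5 (chr19:53528895-53529108, plus strand) has a pair of adjoining CArG boxes, the element that serum response factor binds.
Dusp1: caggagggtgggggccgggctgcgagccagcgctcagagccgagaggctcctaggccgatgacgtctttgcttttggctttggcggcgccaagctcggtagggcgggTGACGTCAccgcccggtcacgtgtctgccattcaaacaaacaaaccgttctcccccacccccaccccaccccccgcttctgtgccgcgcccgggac
Dusp5: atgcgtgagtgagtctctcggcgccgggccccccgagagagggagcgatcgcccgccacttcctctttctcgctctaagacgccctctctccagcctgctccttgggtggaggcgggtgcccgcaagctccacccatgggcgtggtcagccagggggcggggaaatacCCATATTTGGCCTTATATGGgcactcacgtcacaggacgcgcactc
Motifs were searched on both strands in the 250 bases before each RefSeq start, and 33 of the 37 members had a promoter in that table. The cyclic AMP response element was present in 2 members, Dusp1 and Ptpn11, and in 1.55% of all 32851 promoters. The CArG box was present in 2 members, Dusp5 and Ptprr, and in 1.47% of all promoters. The TATA box, searched as TATAAA, was present in 2 members and in 12.4% of all promoters, and a p53 half-site in 5 members and in 7.13% of all promoters. None of these motifs was found in the window of Dusp2, Dusp6, Ptpn18 or Ptpra. A member is counted if any of its promoters has the motif, while the background counts single promoters, so the 2 are not like for like. A match describes these letters only.

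Ptp4a2 itself, read first as the check of the labels, was at 327 and 344 CPM (the count relative to the library total, scaled by TMM factors) in the wild type libraries and at 5.82 and 6.87 CPM in the knockout libraries. The knockout libraries were far below the wild type libraries, so each matched its label. Ptp4a2 (chromosome 4, 129811219 to 129850003 in mm10) fell by 5.72 in fitted log2 level, the 95% interval being -6.08 to -5.37 and the adjusted p 0.000429 in the quasi-likelihood test of edgeR. The call is lost when a knockout library is left out, at an adjusted p of 0.113 without replicate 1 and 0.0832 without replicate 2 in the same test, fits in which the lone knockout library takes its spread from the wild type. Library totals lay between 14625725 and 15422309 counts. All 8 listed granulocyte and monocyte progenitor markers were in the table, with summed levels of 5818, 12446, 6870 and 4308 CPM in wild type 1, wild type 2, knockout 1 and knockout 2. Of 8 T cell markers 2 were in the table, and of 6 hepatocyte and 6 endothelial markers 1 each. In the wild type and knockout libraries they summed to 3.68, 4.38, 2.55 and 3.24 CPM for T cells, to 1.27, 1.95, 0.981 and 1.06 CPM for hepatocytes and to 5.82, 5.66, 4.32 and 3.76 CPM for endothelium. The 5 of 9 erythroid markers in the table summed to 27.3 and 14.8 CPM in the wild type and to 4.84 and 8.78 CPM in the knockout. The 3 of 8 B cell markers, mostly Ighm, summed to 477 and 442 CPM in the wild type and to 309 and 363 CPM in the knockout. The summed levels of these 5 lists, T cell, hepatocyte, endothelial, erythroid and B cell, were lower in both knockout libraries without overlap, a pattern that 21.9% of all single genes also had. Their part in any phosphatase value was not tested. The summed mast cell, megakaryocyte, stromal, macrophage and progenitor markers overlapped between the genotypes. In bulk RNA, fewer cells of a type and less RNA per cell cannot be told apart.

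None of the 37 phosphatase genes was called between the genotypes at an adjusted p of 0.05 or less in edgeR's quasi-likelihood test, in which 0.00735% of all genes were called, Ptp4a2 alone. The smallest adjusted p of a member was 0.474. At an unadjusted p under 0.05, 3 members stood out, Ptpn18, Dusp5 and Ptpra, which is 8.11% of the members, while 9.89% of all genes did. Of these 3, 1 was higher in the knockout (background 5.66%) and 2 were lower (background 4.23%). The members' share was near the background in each direction, so the count is no result about the phosphatases. With a library left out the count moved in both directions. The share over all genes is not given here for those fits, so such counts are not read as a result. DESeq2 called 0 members and 0.718% of all genes with an adjusted p. The edgeR likelihood ratio test called 0 members and 0.477% of all genes, and limma-voom called 0 members and 0.00735%. The authors' deposited table listed 0 members at an adjusted p of 0.05 or less, with 0.477% of all genes listed.

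As a group the phosphatase genes lay evenly on both sides of no difference. Of the 37, 20 had a positive fitted log2 fold change (knockout over wild type) and 17 a negative one. Their median was 0.01, beside -0.01 for all genes, and the values ran from -1.50 for Ptprt to 1.53 for Dusp1. The CPM values of the genotypes did not overlap in 14 members (37.8%), against 44.2% of all genes. There were 7 with both knockout libraries higher (18.9%, background 22.2%) and 7 with both lower (18.9%, background 21.9%). The fitted difference was under 1.5-fold for 31 members and over 2-fold for 2, Dusp1 and Ptprt.

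The intervals show how closely the difference of each single gene was measured, not what size of difference would have been called. For 24 members (64.9%) the 95% interval of the fold change lay within 2-fold in either direction, against 65.6% of all genes. Among protein-coding genes at or above the level of the lowest member the share was higher, at 79.9%. For 12 members (32.4%) the interval lay within 1.5-fold, against 38.6% of all genes and 48.7% of those protein-coding genes. By class the interval lay within 2-fold for 11 of 13 non-receptor genes, 7 of 8 atypical genes, 5 of 9 receptor-type genes and 1 of 7 typical MAP kinase phosphatases, Dusp7. The class of MAP kinase phosphatases is therefore the least closely measured.

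**Figure D1:**
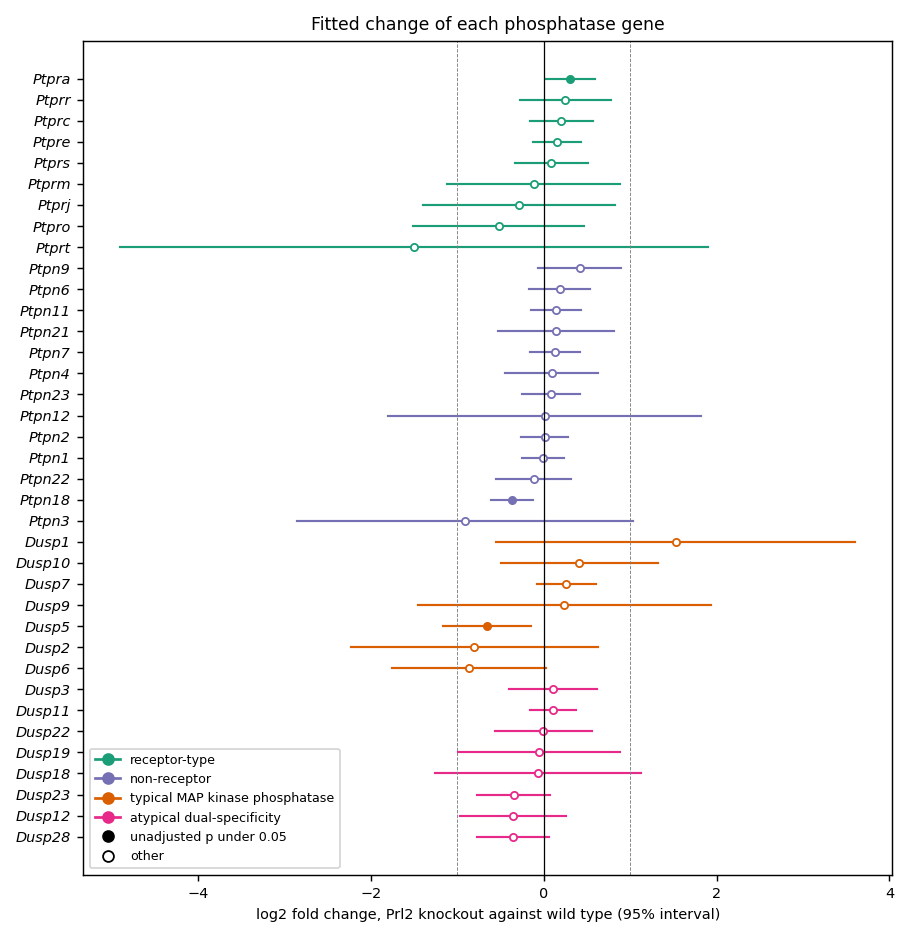
Each row is a phosphatase gene, grouped and coloured by class, and the point is its fitted log2 fold change, Prl2 knockout over wild type, with its 95% interval from edgeR's quasi-likelihood fit. Filled points mark Ptpra, Ptpn18 and Dusp5, the 3 genes at an unadjusted p under 0.05, and the dashed lines mark 2-fold. Most points sit near 0, and the widest intervals belong to Ptprt and Dusp1.

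The levels per gene length set out which phosphatases these leukemia cells used most. In RPKM (CPM divided by the deposited gene length in kilobases) the 4 highest were Ptpn6 at a mean of 157, Ptpn7 at 103, Dusp1 at 75.4 and Dusp2 at 57.5. Together they held 57.2% of the summed RPKM of the 37 genes. Next came Ptpn11 at 28.5, Ptpn1 at 24.3, Ptpn2 at 22.8, Ptprc at 21.2 and Ptpre at 20.0 RPKM. Ptpn6 was above Ptpn7, and Ptpn1 above Ptpn2, in the ranges over the 4 libraries, whereas Ptprc overlapped both Ptpn2 and Ptpre, so its place next to them was not fixed by the data. Dusp1 ranged from 37.8 to 174 RPKM and overlapped Ptpn6, Ptpn7 and Dusp2. In all, 17 members had a mean of 10 RPKM or more, while Ptpn3 (0.362 RPKM) and Ptprm (0.183 RPKM) were under 1 RPKM. The median over the 37 was 8.57 RPKM, against 8.02 for all protein-coding genes of the table.

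**Figure D2:**
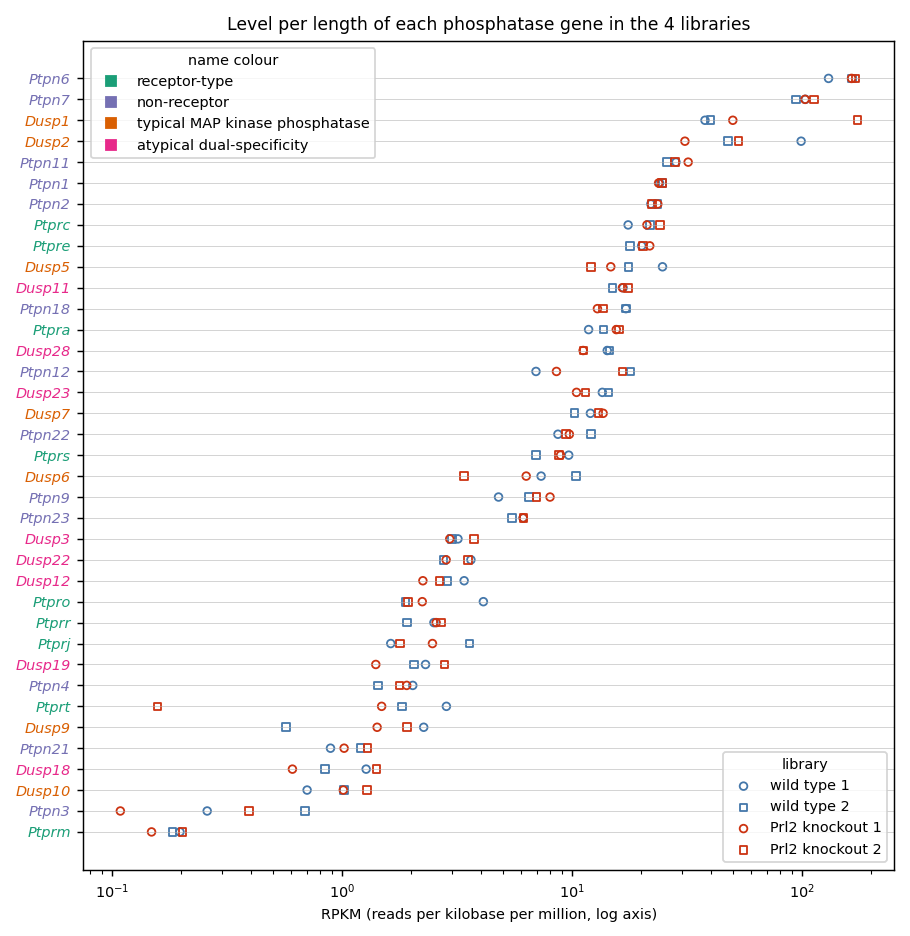
Each row is a phosphatase gene ordered by mean level, and the 4 markers are its RPKM in wild type 1 and 2 (blue) and Prl2 knockout 1 and 2 (red) on a log axis. Ptpn6 and Ptpn7 lead in all 4 libraries except knockout 2, where Dusp1 is the highest, and the knockout 2 marker of Ptprt stands far to the left of the other 3.

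Among the receptor-type genes 5 had a positive and 4 a negative log2 fold change, with a median of 0.09 that turned to -0.09 when each library's trend on gene length was removed. Ptprc, which encodes CD45, the phosphatase that opens Src family kinases in all leukocytes, was at 320 and 400 CPM in the wild type and at 387 and 442 CPM in the knockout. The genotypes overlapped, and the log2 fold change was 0.20 (SE 0.148, 95% interval -0.16 to 0.57). CD45 is the defining marker of leukocytes, and it was high in every library. Ptpre, a phosphatase abundant in blood cells, was at 205 and 182 CPM in the wild type and at 222 and 207 CPM in the knockout, with a fitted log2 difference of 0.15 (SE 0.111).

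Ptpra, which activates Src by removing its inhibitory tail phosphate, was at 128 and 148 CPM in the wild type and at 169 and 173 CPM in the knockout. Both knockout libraries were above both wild type libraries. Its log2 fold change was 0.31 (SE 0.114, 95% interval 0.03 to 0.59), with an unadjusted p of 0.0377 and an adjusted p of 0.494 in edgeR's quasi-likelihood test. The gene (ENSMUSG00000027303.18, chromosome 2, 130450278 to 130556124 in mm10) is among the long ones, at 10848 bp in the table. With the trend on gene length removed the log2 fold change was 0.17 and the unadjusted p 0.186. Without wild type replicate 1 they were 0.19 and 0.134, and without either knockout library the unadjusted p was 0.116 or 0.147.

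Ptprt, a receptor that joins cells and is best known from the nervous system, was at 35.8 and 22.9 CPM in the wild type and at 18.7 and 1.98 CPM in the knockout. Knockout replicate 2 was 9.44 times lower than knockout replicate 1, the largest gap between libraries of 1 genotype among the members. The log2 fold change was -1.50 (SE 1.14, 95% interval -4.90 to 1.90), with an adjusted p of 0.698 in edgeR's quasi-likelihood test, and it was -3.88 without knockout replicate 1 and -0.65 without knockout replicate 2. The other receptor-type genes were Ptprs at 0.09, Ptprr at 0.25, Ptprm at -0.12, Ptprj at -0.29 and Ptpro at -0.52 on the log2 fold change scale. Among them the genotypes were apart in Ptprr alone. On the opposite strand 4933416C03Rik overlaps 10.96% of the exon bases of Ptprr, and the strand setting of the counting is not given. With a library left out Ptprs, Ptprm, Ptprj and Ptpro each turned sign, and Ptpro was 0.13 without wild type replicate 1. Stretches of 300 to 876 bases of Ptprj, a gene of 8352 bp in the table, match pseudogenes (Gm13767, Gm13768 and Gm18953). The identity is up to 99.3%, so part of its counts is uncertain.

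Among the non-receptor genes 9 had a positive and 4 a negative log2 fold change, with a median of 0.08. Without wild type replicate 1 there were 6 positive values and the median was -0.04. Ptpn6, the gene of SHP1, which binds inhibitory receptors and damps cytokine signals in blood cells, was at 365 and 460 CPM in the wild type and at 459 and 478 CPM in the knockout. The genotypes overlapped through wild type replicate 2, and the log2 fold change was 0.18 (SE 0.142, 95% interval -0.17 to 0.54). The antisense gene Gm20531 overlaps 6.96% of the exon bases of Ptpn6, so reads of the pair cannot be told apart. Ptpn11, the gene of SHP2, was at 212 and 194 CPM in the wild type and at 239 and 209 CPM in the knockout, and its fitted log2 difference was 0.15 (SE 0.117, 95% interval -0.15 to 0.44). Ptpn7, a blood cell phosphatase that acts on ERK and p38, was at 630 and 572 CPM in the wild type and at 628 and 686 CPM in the knockout, and its fitted log2 difference was 0.13 (SE 0.117). For these 3 abundant enzymes of blood cell signalling the 95% intervals lay within 1.5-fold.

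Ptpn1 and Ptpn2 encode PTP1B and TC-PTP, close relatives that act on JAK kinases. Ptpn1 was at 133 and 137 CPM in the wild type and at 131 and 136 CPM in the knockout. Its log2 fold change was -0.01 (SE 0.0965, 95% interval -0.25 to 0.23). Ptpn2 was at 68.7 and 73.3 CPM in the wild type and at 73.6 and 69.3 CPM in the knockout. Its log2 fold change was 0.01 (SE 0.110, 95% interval -0.26 to 0.28). In both genes the genotypes overlapped, and the intervals exclude a 1.5-fold difference either way.

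Ptpn18, a phosphatase of the PEST group best known for acting on the receptor HER2, had the smallest p of the members. It was at 111 and 111 CPM in the wild type and at 83.5 and 88.3 CPM in the knockout, so both knockout libraries were lower. Its log2 fold change was -0.37 (SE 0.100, 95% interval -0.62 to -0.12), with an unadjusted p of 0.0110 and an adjusted p of 0.474 in edgeR's quasi-likelihood test. The wild type level was 1.29 times that of the knockout. Without knockout replicate 1 the unadjusted p was 0.0770. The gene (ENSMUSG00000026126.15) lies on chromosome 1 from 34459762 to 34475733 in mm10. On the opposite strand Gm28417 overlaps 7.58% of its exon bases, and the strand setting of the counting is not given in the sources used here, so reads of the pair cannot be told apart. The log2 fold change of Gm28417, chosen after its values were seen, was -0.36 (edgeR quasi-likelihood adjusted p = 0.743).

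Ptpn9, a phosphatase of secretory vesicles, was at 22.3 and 30.2 CPM in the wild type and at 37.3 and 32.6 CPM in the knockout. Both knockout libraries were above both wild type libraries, and the log2 fold change was 0.41 with an SE of 0.192 (adjusted p = 0.534 in the quasi-likelihood test of edgeR). It was 0.20 without wild type replicate 1 and 0.64 without wild type replicate 2. Ptpn12, a further member of the PEST group, differed between libraries of the same genotype by more than 1.5-fold, at 24.4 and 63.0 CPM in the wild type and 29.96 and 58.1 CPM in the knockout. In each genotype replicate 2 was the higher, and the log2 fold change of 0.01 had a 95% interval from -1.80 to 1.82. Of the rest, Ptpn4, Ptpn21 and Ptpn23 had log2 fold changes of 0.09, 0.14 and 0.08, and Ptpn22 and Ptpn3 had -0.12 and -0.92, with Ptpn3 at under 5 CPM in every library.

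**Figure D3:**
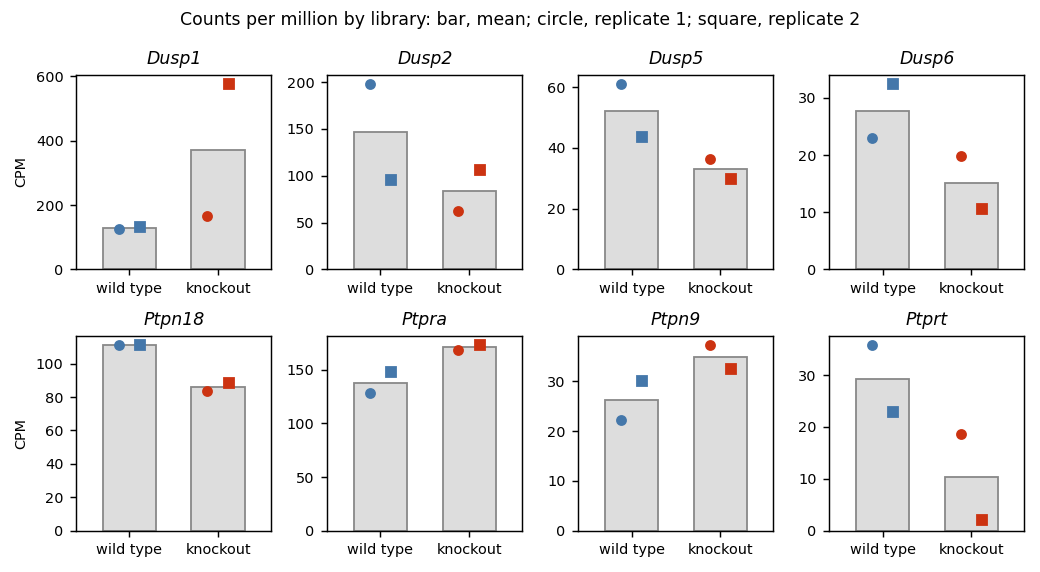
Each panel shows a phosphatase gene in CPM on an axis from 0, with the bar at the mean of 2 libraries, circles for replicate 1 and squares for replicate 2. Ptpn18 and Dusp5 have both knockout libraries below the wild type and Ptpra and Ptpn9 both above, while the knockout bar of Dusp1 stands on the 576 CPM of replicate 2 and that of Ptprt is pulled down by the 1.98 CPM of replicate 2.

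The typical MAP kinase phosphatases held both the largest positive value and several of the largest negative ones, with 4 positive and 3 negative log2 fold changes and a median of 0.24. That median rests on single libraries: it was -0.44 without wild type replicate 2, 0.16 without wild type replicate 1 and 0.0031 without knockout replicate 2. They also varied most between libraries of 1 genotype. The ratio of the higher to the lower library had a median of 1.42 for the wild type pair and 1.35 for the knockout pair over these 7 genes. Over the 10622 protein-coding genes at or above the level of the lowest member it was 1.14 and 1.11. The summed level of the 7 genes was 456 and 342 CPM in the wild type and 336 and 775 CPM in the knockout, and knockout replicate 2 was the highest through Dusp1.

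Dusp1, which encodes MKP1, the nuclear phosphatase of p38 and JNK, was at 125 and 132 CPM in the wild type and at 165 and 576 CPM in the knockout. These levels rest on 1870 and 1962 counts for wild type and 2526 and 8722 counts for knockout. Both knockout libraries were above the wild type, and knockout replicate 2 was 3.49 times knockout replicate 1. The log2 fold change was 1.53 (SE 0.695, 95% interval -0.55 to 3.61), with an adjusted p of 0.564 in edgeR's quasi-likelihood test. Without knockout replicate 2 it was 0.36, so the size rests on that library. Fos, the immediate-early transcription factor, was also highest there, at 228 and 186 CPM in the wild type and 265 and 632 CPM in the knockout. Junb, another such factor, was at 96.5, 93.1, 70.2 and 112 CPM in the same order of libraries. The part of an immediate-early response in the Dusp1 value was not tested.

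Dusp2, a nuclear phosphatase of ERK and p38 induced in activated blood cells, was at 198 and 94.96 CPM in the wild type and at 61.9 and 106 CPM in the knockout. Wild type replicate 1 stood apart, and wild type replicate 2 lay between the knockout libraries. The log2 fold change was -0.80 (SE 0.494, 95% interval -2.24 to 0.63; adjusted p = 0.635 in the quasi-likelihood test of edgeR), and it was -0.19 without wild type replicate 1, -1.24 without wild type replicate 2 or knockout replicate 2 and -0.47 without knockout replicate 1. Egr1, an immediate-early transcription factor, was also highest in wild type replicate 1, at 163 CPM against 56.8, 48.7 and 64.0 CPM in wild type 2, knockout 1 and knockout 2. Ier3, another ERK-induced gene, was at 42.2 CPM there against 21.1, 25.8 and 24.2 CPM. The rule for named genes takes neither Egr1 nor Ier3. Ier2 was also highest in wild type replicate 1 (434 CPM). Fos and Junb were at 228 and 96.5 CPM there and highest in knockout replicate 2, at 632 and 112 CPM. The part of the state of wild type replicate 1 in the Dusp2 value was not tested.

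Dusp5, the nuclear phosphatase that acts on ERK alone, was at 61.1 and 43.4 CPM in the wild type and at 36.4 and 29.9 CPM in the knockout. Both knockout libraries were below both wild type libraries. The log2 fold change was -0.66 (SE 0.205, 95% interval -1.17 to -0.15), with an unadjusted p of 0.0203 and an adjusted p of 0.474 in edgeR's quasi-likelihood test. It was -0.40 without wild type replicate 1 (unadjusted p 0.0674), -0.89 without wild type replicate 2 and -0.52 without knockout replicate 2 (unadjusted p 0.122). The gene (ENSMUSG00000034765.6) lies on chromosome 19 from 53529109 to 53542431 in mm10, right after the promoter bases shown above. The antisense gene AC137853.2 covers 22.1% of its exon bases, so reads of the pair cannot be told apart.

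Dusp6, the cytoplasmic phosphatase of ERK and a standard readout of ERK activity, was at 22.9 and 32.5 CPM in the wild type and at 19.8 and 10.6 CPM in the knockout. Both knockout libraries were lower, with wild type replicate 1 and knockout replicate 1 close to each other. The log2 fold change was -0.87 (SE 0.350, 95% interval -1.76 to 0.02; adjusted p = 0.514 in the quasi-likelihood test of edgeR), and it was -1.38 without knockout replicate 1 and -0.49 without knockout replicate 2. Dusp7, its close relative, was at 40.3 and 34.3 CPM in the wild type and 45.7 and 43.7 CPM in the knockout, a log2 fold change of 0.26. Dusp10, a phosphatase of p38 and JNK, and Dusp9 were low, with log2 fold changes of 0.41 and 0.24 and no more than 6.15 CPM in any library.

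**Figure D4:**
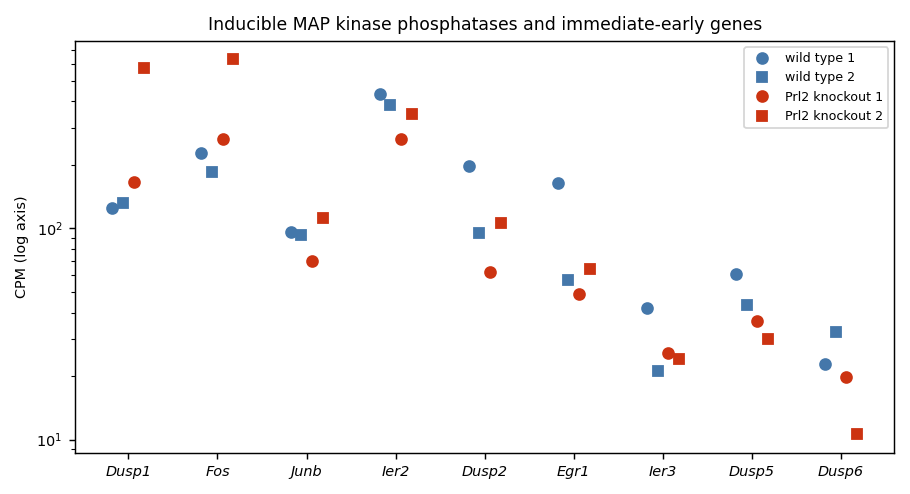
Points are CPM on a log axis in the 4 libraries, wild type in blue and Prl2 knockout in red, for Dusp1, Dusp2, Dusp5 and Dusp6 and for 5 immediate-early genes. Dusp1 and Fos share a high value in knockout 2 (576 and 632 CPM), and Dusp2, Egr1 and Ier3 share a high value in wild type 1.

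Among the atypical dual-specificity genes 2 had a positive and 6 a negative log2 fold change, with a median of -0.06. This balance turned with single libraries: 5 of 8 were positive without wild type replicate 1 (median 0.08) and without knockout replicate 1 (median 0.15). The median was -0.25 without wild type replicate 2 and -0.39 without knockout replicate 2. Dusp11, which removes phosphates from the 5′ end of RNA, was the most abundant, at 146 and 131 CPM in the wild type and 145 and 153 CPM in the knockout. Its log2 fold change was 0.11 (SE 0.108, 95% interval -0.16 to 0.37). Dusp28 was at 18.7 and 19.1 CPM in the wild type and 14.7 and 14.7 CPM in the knockout, with a fitted log2 difference of -0.36 (SE 0.169; adjusted p = 0.537 in the quasi-likelihood test of edgeR). Dusp23, a small phosphatase, was at 19.1 and 20.3 CPM in the wild type and 14.7 and 16.1 CPM in the knockout, with a fitted log2 difference of -0.35 (SE 0.172). In both genes the replicates of a genotype lay close together and the genotypes did not overlap. With the trend on gene length removed the log2 fold change was -0.24 for Dusp28 and -0.23 for Dusp23. Dusp12 also had both knockout libraries lower, with a log2 fold change of -0.36. On the opposite strand, however, Gm9929 overlaps 32.5% of its exon bases and Gm26620 17.3%, so their reads cannot be told apart. Dusp3, with 12.9% of its exon bases opposite the antisense gene Gm20659, was at 0.11. Dusp18, Dusp19 and Dusp22 were at -0.07, -0.06 and -0.01 on the same scale.

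**Figure D5:**
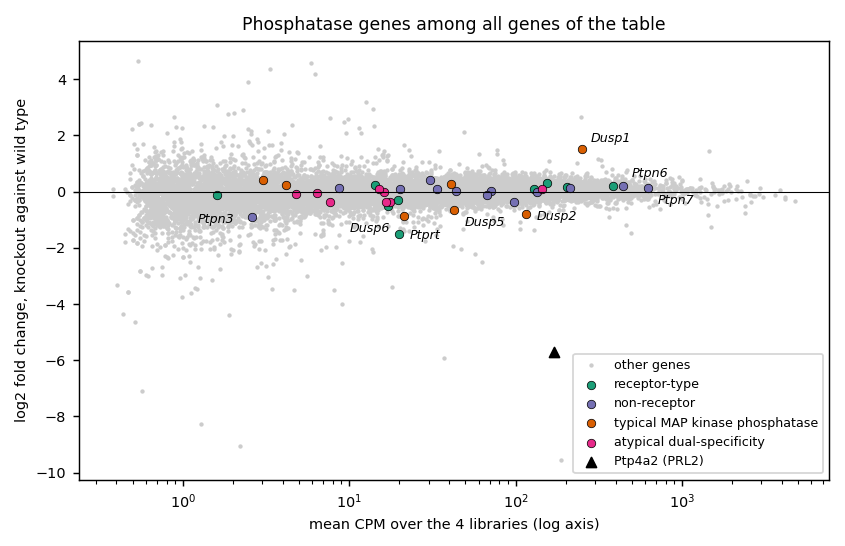
Each grey point is a gene of the table, with its mean CPM over the 4 libraries on a log axis and its fitted log2 fold change, knockout over wild type, and coloured points are the 37 phosphatase genes by class. They lie between -1.50 (Ptprt) and 1.53 (Dusp1), and Ptp4a2, the triangle, lies at -5.72.

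Other phosphatase and related genes, most of which use a catalytic cysteine, were read as a list beside the members. Of 37 listed genes 34 were in the table. Eya1 and Eya3 use no catalytic cysteine, and Styx, Sbf1, Sbf2, Mtmr9, Mtmr10 and Mtmr12 are relatives without activity of their own. Mtmr12 is among the 5 higher genes counted below. Ptp4a2 was the one called. Of the 34, 27 had a positive and 7 a negative log2 fold change, with a median of 0.20, or 0.15 with the trend on gene length removed, beside -0.01 for all genes. At an unadjusted p under 0.05, 5 of the 34 were higher in the knockout (background 5.66%) and 1, Ptp4a2, was lower (background 4.23%). The count of 6 fell with either knockout library left out, fits for which no share over all genes is given here. By size of p the first of the 5 were Cdc25b, which activates cyclin-dependent kinases at entry into mitosis, and Mtm1, a lipid phosphatase. Cdc25b was at 33.8 and 38.7 CPM in the wild type and 56.2 and 47.0 CPM in the knockout (log2 fold change 0.51, edgeR quasi-likelihood adjusted p = 0.474). Mtm1 was at 30.8 and 35.3 CPM in the wild type and 49.5 and 43.1 CPM in the knockout (log2 fold change 0.49, edgeR quasi-likelihood adjusted p = 0.474).

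Genes that work beside the members in the same pathways were read from further lists. Of 17 listed MAP kinases and their kinases 14 were in the table, with 8 positive and 6 negative log2 fold changes, a median of 0.09 and 0 called by the quasi-likelihood test or DESeq2. At an unadjusted p under 0.05, Mapk14, the gene of p38 alpha, was at 351 and 382 CPM in the wild type and 442 and 451 CPM in the knockout (log2 fold change 0.29). Mapk3, the gene of ERK1 and the most abundant of the list per length, had a log2 fold change of -0.09. When wild type replicate 1, knockout replicate 1 or knockout replicate 2 was left out, no gene of the list had an unadjusted p under 0.05. For Mapk14 the genotypes did not overlap, and the adjusted p was 0.494 in edgeR's quasi-likelihood test.

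Of 17 listed ERK output and feedback genes 14 were in the table, with 8 positive and 6 negative values, a median of 0.11 (-0.04 without knockout replicate 1) and 0 called by the quasi-likelihood test or DESeq2. At an unadjusted p under 0.05 in edgeR's quasi-likelihood test were Ier2, lower in the knockout, and Etv5, higher. Of all genes, 5.66% were higher and 4.23% lower at that p. Ier2 was at 434 and 383 CPM in the wild type and 264 and 349 CPM in the knockout (log2 fold change -0.42). Etv5 was at under 2 CPM in every library (log2 fold change 2.09). The negative values of Dusp5 and Dusp6 stood beside output genes of both signs, and the part of ERK activity in them was not tested. Spry2, a feedback inhibitor of RAS signalling chosen after its values were seen, was at 44.4 and 44.5 CPM in the wild type and 52.6 and 52.1 CPM in the knockout.

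A list of 26 genes took docking proteins and inhibitory receptors of SHP1 or SHP2, together with the RAS activators Sos1 and Sos2. Of these, 22 were in the table, with 13 positive and 9 negative values and a median of 0.06. At an unadjusted p under 0.05, 3 of the 22 were higher in the knockout (background 5.66%) and none was lower (background 4.23%). With a library left out the count moved in both directions, and no share over all genes is given here for such fits. The median turned to -0.01 without knockout replicate 2. Siglece, an inhibitory sialic acid receptor of myeloid cells, was at 50.02 and 46.4 CPM in the wild type and 76.6 and 102 CPM in the knockout (log2 fold change 0.89, edgeR quasi-likelihood adjusted p = 0.474). Cd33, a related receptor, was at 789 and 779 CPM in the wild type and 1113 and 1161 CPM in the knockout (log2 fold change 0.54). Sos2, an activator of RAS, was at 118 and 117 CPM and 163 and 152 CPM (log2 fold change 0.43). In all 3 the knockout libraries were above the wild type. The quasi-likelihood test called 0 of the list. At an adjusted p of 0.05 or less DESeq2 called 2, and 0.718% of all genes with an adjusted p. The edgeR likelihood ratio test called 1, and 0.477% of all genes. Clec12a, the most abundant per length, had a log2 fold change of -0.14.

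Of 21 listed tyrosine kinases on which these phosphatases act 18 were in the table, with 11 positive and 7 negative values, a median of 0.11 and 0 called by the quasi-likelihood test or DESeq2. Csf1r, the receptor of macrophage colony-stimulating factor, was the one of the 18 at an unadjusted p under 0.05, while 9.89% of all genes were. That count rose with either wild type library left out, fits for which no share over all genes is given here. The median turned to -0.03 without knockout replicate 2. Csf1r was at 99.7 and 109 CPM in the wild type and 77.2 and 70.3 CPM in the knockout (log2 fold change -0.50, SE 0.112, edgeR quasi-likelihood adjusted p = 0.474). The listed macrophage markers, Csf1r included, summed to 507 and 447 CPM in the wild type and 506 and 729 CPM in the knockout, so the list did not follow Csf1r. Fes, the most abundant of the kinases per length, had a log2 fold change of -0.03.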

How the data were processed

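Per the file headers, the authors deposited 1 table with read counts per gene and library, a gene length, and their log2 fold change, p-value and adjusted p-value. The tools STAR, featureCounts and Bowtie2 and the mm10 genome come from the submitters' processing notes, and their versions, order and strand setting were not given in the sources used here. All 13614 genes had a CPM above 0.5 in at least 2 libraries, so the deposited table was filtered. Replicates of 1 genotype varied beyond sampling noise, at a mean chi-square over genes of 33.8 for wild type and 18.7 for knockout. They were kept as 2 samples. Columns were matched to samples by the names in the descriptions.

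Counts were tested with edgeR 4.0.16 (R 4.3.3), a robust quasi-likelihood fit with TMM factors and genotype as the single term. P-values were two-sided and Benjamini-Hochberg adjusted over all genes, with calls at 0.05 or less. The SE is the fold change divided by the root of F. The steps were tested on simulated data. DESeq2 1.42.0, limma 3.58.1 (voom) and the other alternatives are given in the closing section.

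The members, the lists and the rule for named genes were chosen with earlier results of these data known. The rule takes Ptpn1, Ptpn2, Ptpn6, Ptpn11, Ptprc, Dusp1 and Dusp6, members at an unadjusted p under 0.05, the 3 most abundant of each class, the 5 largest differences without overlap, those with a 4-fold gap between replicates, and up to 3 genes of each further list at an unadjusted p under 0.05 with its most abundant gene. The other members are named to account for all 37. Of the further lists, 1 gene that the rule takes is not reported here.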

Additional observations from a re-analysis of the deposited data

How the results depend on the processing

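No phosphatase gene was called under any of the 15 alternatives, which were run on all 37 members: DESeq2, limma-voom, edgeR's likelihood ratio test, DESeq2 size factors, library totals only, a CPM above 1 in at least 2 libraries, protein-coding genes only, a removed length trend, no robust estimation, the replicate block with and without crossing, and each library left out. Over all genes the quasi-likelihood test called 1, DESeq2 92 and the likelihood ratio test 65, and with a library left out 0 to 8 were called (0 without either knockout library, 8 without wild type replicate 1 and 7 without wild type replicate 2). The members at an unadjusted p under 0.05 numbered 3 in the quasi-likelihood test. With a library left out the count moved in both directions, and the cause was not tested. No share over all genes is given here for those fits. The median log2 fold change of the 37 members was 0.0105 and became 0.0837 with limma-voom, and -0.0374 to 0.0876 with a library left out. Ptp4a2 kept a log2 fold change of -5.85 to -5.61 with a library left out. Near-zero values turned sign: Dusp11 was -0.0061 with the length trend removed and Ptpn2 -0.0150 with library totals only. Larger values turned too. Ptpro went from -0.52 to 0.13 without wild type replicate 1. Without wild type replicate 2 Ptprj went from -0.29 to 0.38 and Dusp9 from 0.24 to -0.44. With a library left out Ptpn1 ran from -0.0424 to 0.0158 and Ptpn2 from -0.0481 to 0.0524. Over all members 20 kept their sign in every alternative, 12 turned only when a library was left out and 5 in another alternative.

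Same-numbered libraries deviated in opposite directions (correlation -0.140 over 9397 genes), and the labels do not pair them. With the replicate block of the titles 3 members were at an unadjusted p under 0.05 and the median was 0.0839. With the numbers crossed, an alternative chosen after seeing the data, 6 members were, and the median was 0.0822. Shares over all genes are not given here for the block fits, so these counts are no result about the members.

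With 2 libraries per genotype, the intervals of 13 members reach beyond 2-fold, 6 of them typical MAP kinase phosphatases and 4 receptor-type genes. For these a difference of that size is not excluded.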
